A study of Mus musculus with 31 samples.

Results

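Potassium channel genes, taken as the protein-coding genes of the mouse GENCODE annotation (release M21, mm10) whose symbols start with Kcn, number 94 of 21938 protein-coding genes on chromosomes 1 to 19, X and Y. Their chromatin was examined by ATAC-seq in the parental NIH-3T3 line, an established line of mouse embryonic fibroblasts into which no TF had been introduced. In this assay the transposase Tn5 inserts adapters into DNA free of nucleosomes, and peaks mark accessible chromatin. The library was made from 50000 cells with 0.5 µM Tn5. The labels give 12 cycles of PCR and no doxycycline for this sample, whereas the methods describe a number of cycles set by qPCR and doxycycline for NIH-3T3 cells in general. The peaks come from 1 library, so there is no replicate error and no test between samples, and genes are not replicates of each other. The series holds another 30 samples, with expression of TFs or of rtTA3G alone, which were not analysed here.

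The list holds 63456 peaks with a median width of 327 bp. The number of fragments at the summit was solved from the peak's fold enrichment and p-value for all but 21 peaks, none of them at a Kcn gene, and the median summit lay under 29 fragments and the lowest under 10, so that peaks with few fragments rest on small counts. A gene has a promoter peak here when a peak lies within 1 kb of the start of any of its transcripts, and a gene-body peak when a peak overlaps the gene farther than 1 kb from all of its starts. Of 12 fibroblast markers, 11 had a promoter peak, among them Col1a1, Fn1 and Vim, and Postn did not. None of 6 neuronal and 3 heart muscle markers and none of 3 blood markers had a promoter peak. Krt8 was the 1 of 4 epithelial markers with one, and all 3 endothelial markers (Cdh5, Pecam1 and Tek) had one.

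Potassium channels let potassium ions leave or enter the cell along their gradient and set the resting membrane potential. The pore is formed by alpha subunits: voltage-gated (Kcna, Kcnb, Kcnc, Kcnd, Kcnh and Kcnq), inwardly rectifying (Kcnj), K2P leak channels with a pair of pore domains per subunit (Kcnk), and channels opened by calcium or sodium inside the cell (Kcnma, Kcnn, Kcnt and the related Kcnu). Silent subunits (Kcnf, Kcng, Kcns and Kcnv) form no channel alone, and auxiliary subunits (Kcnab, Kcne, Kcnip and Kcnmb) bind to a pore and change its gating or its transport to the membrane. Most members are best known from neurons, heart, muscle or secretory epithelia.

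The 101 bases centred on the summit are shown, in mm10 and on the strand of the gene, for the promoter peaks with the highest fold enrichment outside coding exons, since 3 of them hold the AP-1 heptamer TGACTCA or its reverse complement TGAGTCA, in capitals. AP-1 is the family of FOS and JUN factors that binds this heptamer. The windows lie at chr3:65297192-65297292 (plus strand), chr3:65352839-65352939 (plus), chr1:189215261-189215361 (minus) and chr7:24369885-24369985 (plus).
Kcnab1, strongest peak, without the heptamer: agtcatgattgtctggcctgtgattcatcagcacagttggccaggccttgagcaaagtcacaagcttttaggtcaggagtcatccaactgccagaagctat
Kcnab1, next peak: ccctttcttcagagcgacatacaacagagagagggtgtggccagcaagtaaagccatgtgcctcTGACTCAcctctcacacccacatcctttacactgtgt
Kcnk2: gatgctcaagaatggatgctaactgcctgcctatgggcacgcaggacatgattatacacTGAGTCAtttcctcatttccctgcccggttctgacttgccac
Kcnn4: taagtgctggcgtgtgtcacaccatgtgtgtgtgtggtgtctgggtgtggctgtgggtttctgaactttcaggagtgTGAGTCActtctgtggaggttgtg

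Only 9 of the 94 Kcn genes (9.57%) had a promoter peak, against 53.7% of all protein-coding genes. They were Kcnab1, Kcnab2 and Kcnab3, which encode the Kvβ subunits, the K2P channels Kcnk2, Kcnk7 and Kcnk13, the voltage-gated channels Kcna7 and Kcnh6, and the calcium-activated channel Kcnn4. All 3 Kcnab genes had one, compared with 6 of the other 91 Kcn genes (6.59%). Of the remaining groups with pores, a promoter peak was found at 2 of 30 voltage-gated genes, at 0 of 15 inward rectifiers, at 3 of 14 K2P genes and at 1 of 8 calcium- or sodium-activated genes and their relatives. The 10 silent subunits, the 4 Kcnip genes, the 5 Kcne genes, the 4 Kcnmb genes and Kcnrg, a regulator of channel assembly that forms no pore, had none.

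**Figure D1:**
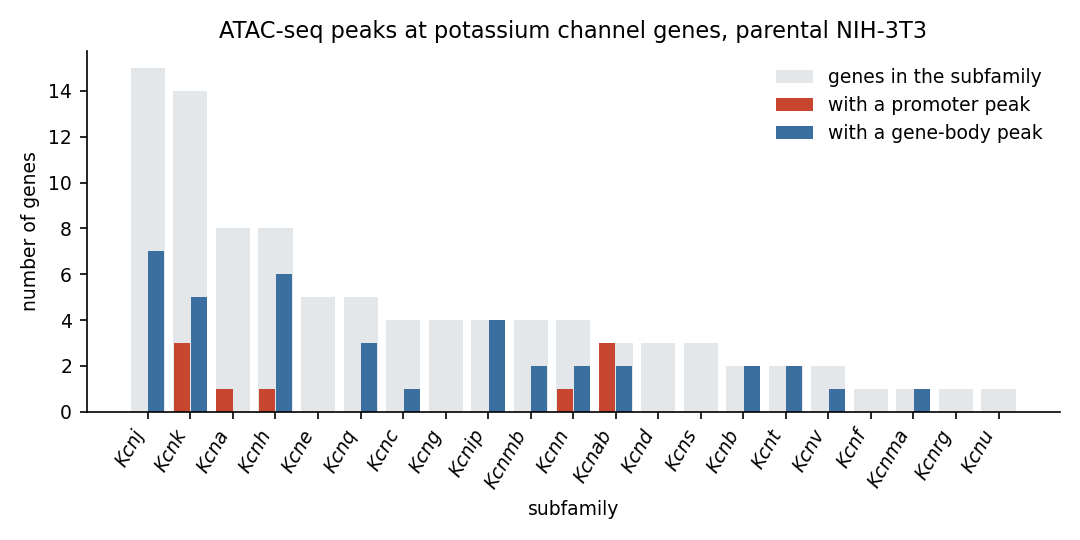
Number of genes in each Kcn subfamily (grey bars), with a promoter peak (red) and with a gene-body peak (blue), in 1 library of parental NIH-3T3 cells. Red bars appear in 5 of the subfamilies and fill only that of Kcnab, with 3 of 3 genes, whereas all 4 Kcnip genes have a gene-body peak and none a promoter peak.

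Most of these promoter peaks were weaker than the median promoter peak of all protein-coding genes. Counting the highest peak of each gene, the median fold enrichment was 5.08 over the 9 Kcn genes and 9.86 over all protein-coding genes with a promoter peak (quartiles 7.27 and 12.4). Restricted to a fold enrichment of at least 5, which leaves out the weaker genes, these medians were 10.9 over 5 Kcn genes and 10.3. The 12 promoter peaks of Kcn genes had a median width of 444.5 bp and a median of 35 fragments at the summit, compared with 681 bp and 52 fragments for the promoter peaks of all protein-coding genes. At a fold enrichment of at least 5, 5 of the 94 Kcn genes retained a promoter peak (Kcnab1, Kcnab2, Kcnab3, Kcnk2 and Kcnn4), against 48.8% of protein-coding genes.

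Kcnab1 encodes Kvβ1, a cytoplasmic subunit related to aldo-keto reductases that speeds up inactivation of Shaker-type channels. Its strongest promoter peak, at chr3:65296837-65297590, was 754 bp wide with a −log10 q of 117 and a fold enrichment of 17.7, and its summit lay under 133 fragments where 6.56 were expected. Among the highest promoter peaks of all protein-coding genes with one, it stood at percentile 98.2. It did not lie at the first start of the gene. It covered the start of the processed transcript ENSMUST00000160136.2, inside an intron of the other transcripts, and its summit was in an exon of the antisense gene A330015K06Rik. A peak of 397 bp at chr3:65352634-65353030, with a fold enrichment of 9.72 and 36 fragments, lay 737 bp from the start of a transcript with a retained intron.

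Kcnab2, which encodes Kvβ2, had 3 promoter peaks. The widest, of 1039 bp at chr4:152477318-152478356, lay at the first starts of the gene and also within 1 kb of a start of the neighbouring gene Nphp4. Its fold enrichment was 10.9, with 69 fragments at the summit, and the 101 bases at the summit held 12 CpG dinucleotides. A peak of 620 bp at chr4:152448421-152449040, with a fold enrichment of 10.6 and 58 fragments, covered the start of the protein-coding transcript ENSMUST00000105648.8 within the gene. The third, at chr4:152448089-152448293, was 205 bp wide and reached a fold enrichment of 3.76 with 20 fragments. Peaks thus lay at more than 1 of the starts of Kcnab2, and the gene kept a promoter peak when the one shared with Nphp4 was left out.

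Kcnab3 encodes Kvβ3. Its peak of 492 bp at chr11:69325821-69326312 covered the gene start, with 34 fragments, a −log10 q of 13.0 and a fold enrichment of 5.08. This was below the lower quartile of the highest promoter peaks of all protein-coding genes with one. The 3 Kcnab genes thus spanned the range from percentile 98.2 to percentile 9.67.

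Kcnk2 encodes TREK-1, a leak channel opened by membrane stretch and lipids. Its peak of 775 bp at chr1:189214998-189215772 had 128 fragments where 8.12 were expected, a −log10 q of 99.6 and a fold enrichment of 14.1 (percentile 87.6). As at Kcnab1, the peak covered the start of a processed transcript, ENSMUST00000193686.1, in an intron of the coding transcripts, and no peak lay within 1 kb of the first start of Kcnk2. With the starts of protein-coding transcripts alone, 7 Kcn genes had a promoter peak, and Kcnab1 and Kcnk2 were the ones that lost theirs. Whether these transcripts are made in these cells was not measured.

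Kcnn4 encodes KCa3.1, the intermediate-conductance channel opened by calcium through calmodulin. Its peak of 750 bp at chr7:24369766-24370515 covered the gene start, with the summit at -328 bp from it (upstream), 83 fragments where 11.0 were expected, a −log10 q of 40.7 and a fold enrichment of 7.03. Its summit held more fragments than that of any Kcnab2 promoter peak, at a lower fold enrichment and over a higher expected number. The small-conductance channels of the same subfamily, Kcnn1, Kcnn2 and Kcnn3, had no promoter peak, with the nearest peak 2239, 439584 and 11765 bp from their starts.

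The other 4 genes had narrow peaks with few fragments. The peak of Kcna7, which encodes Kv1.7, was 174 bp wide with a fold enrichment of 4.60 and 20 fragments, 335 bp from the gene start at chr7:45405145-45405318. At Kcnk13, which encodes THIK-1, a peak of 128 bp at chr12:99964408-99964535 covered the gene start with a fold enrichment of 4.27 and 16 fragments. The peak of Kcnh6, which encodes a relative of the cardiac channel gene Kcnh2, was 108 bp wide at chr11:106007943-106008050, 74 bp from the gene start, with a fold enrichment of 3.29 and 26 fragments. Kcnk7, a K2P gene whose product gives no current on its own, had the weakest, 113 bp wide at chr19:5704932-5705044, with 16 fragments, a −log10 q of 1.68 and a fold enrichment of 2.41 (percentile 0.0594). These 4 peaks lay below the lower quartile of the highest promoter peaks of protein-coding genes, and that of Kcnk7 was absent at a q of 0.01.

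**Figure D2:**
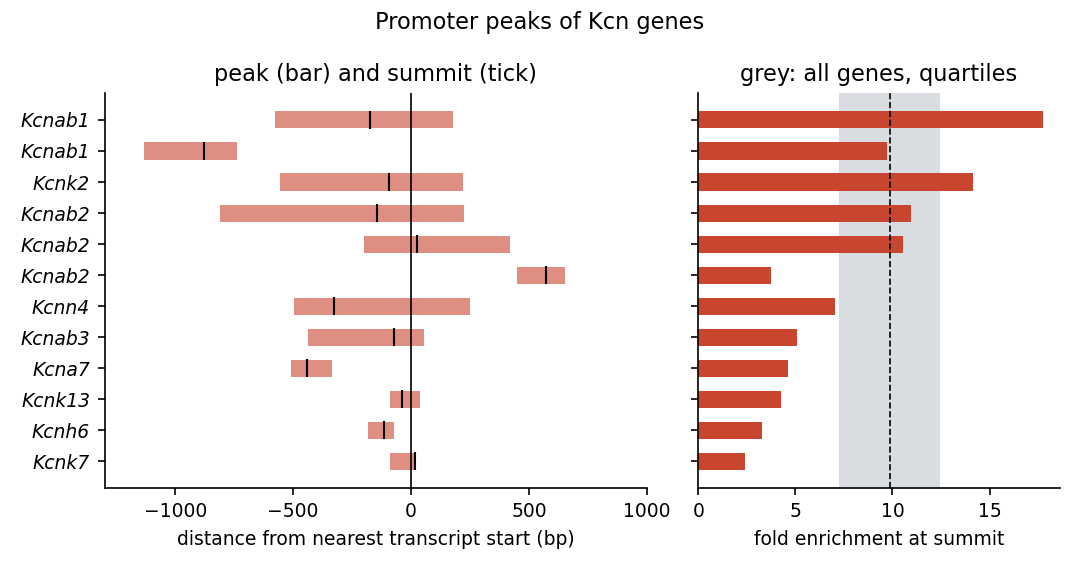
The 12 promoter peaks of Kcn genes. Left, position of each peak (bar) and its summit (tick) relative to the nearest transcript start, in bp along the gene's strand. Right, fold enrichment at the summit, with the quartiles (grey band) and the median (dashed line, 9.86) of the highest promoter peak of each protein-coding gene that has one. The highest peaks of Kcnab1 and Kcnk2 lie above the band, and those of 6 of the 9 genes lie below it.

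The 3 heptamers among 12 promoter peaks were 25% of summit windows, compared with 6.05% of 13923 promoter peaks of all protein-coding genes. The count is small, and 2 of the 3 peaks lay at or near starts of non-coding transcripts inside introns. Around the gene starts themselves (500 bp to either side), TGACTCA on either strand was present at 11 of 94 Kcn genes (11.7%) and at 12.1% of all protein-coding genes.

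Many Kcn genes without a promoter peak had starts rich in CpG dinucleotides, a feature of starts that are accessible in most tissues. The CpG ratio, observed over expected CpG in 500 bp to either side of the gene start, was at least 0.6 for 36 of the 94 genes (38.3%) and for 45.9% of all protein-coding genes. Of those 36, 3 had a promoter peak (8.33%; Kcnab2, Kcnab3 and Kcnk2), compared with 82.8% of all protein-coding genes with such a ratio. The peak of Kcnk2 is not at its CpG-rich first start, and with first starts alone the count was 2 of 36. Of the 58 Kcn genes below 0.6, 6 had one (10.3%), compared with 29.0% of protein-coding genes below it. Genes without a promoter peak had a median CpG ratio of 0.50 among Kcn genes and of 0.24 among all protein-coding genes. The limit of 0.6 was chosen after the values were seen, and at 0.75 the count was 1 of 20 Kcn genes compared with 87.3%. At 0.6, a promoter peak was found at 1 of 3 sodium, 3 of 11 calcium, 0 of 4 HCN and 2 of 6 TRP channel genes. It was found at 5 of 5 chloride channel genes (Clcn) and at 7 of 9 genes of potassium pumps and cotransporters. A low share was thus not particular to Kcn genes.

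CpG-rich starts without a peak were found in most groups of channels. All 17 voltage-gated pore genes with a ratio of at least 0.6 lacked a promoter peak, as did 7 of 8 such K2P genes and all 5 such inward rectifiers. Among the highest ratios were those of Kcnmb4 (1.04), an auxiliary subunit of the BK channel, the silent subunit Kcng3 (0.957), the inward rectifier Kcnj12 (0.922) and the K2P channel Kcnk9 (0.911). Their nearest peaks lay 35431, 1125, 3192 and 2899 bp from a start.

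The 250 bases upstream of the start, from RefSeq on GRCm38.p6 and with each CpG in capitals, are shown for 3 genes of this kind whose windows lie outside coding-gene exons. Kcng3 and Kcnd3 had the highest CpG ratios among such genes with a RefSeq start within 1 kb of the gene start, and Kcnd2 was the farthest from any peak. RefSeq windows were matched for 69 of the 94 Kcn genes. The sequences lie at chr17:83631896-83632145 (minus strand), chr3:105451640-105451889 (plus) and chr6:21215096-21215345 (plus), and hold 41, 18 and 22 CpG dinucleotides.
Kcng3: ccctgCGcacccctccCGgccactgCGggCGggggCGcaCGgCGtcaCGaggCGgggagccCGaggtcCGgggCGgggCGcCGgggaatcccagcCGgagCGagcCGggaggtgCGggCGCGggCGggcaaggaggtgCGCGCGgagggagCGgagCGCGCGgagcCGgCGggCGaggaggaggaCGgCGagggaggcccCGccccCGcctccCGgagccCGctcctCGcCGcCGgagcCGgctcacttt
Kcnd3: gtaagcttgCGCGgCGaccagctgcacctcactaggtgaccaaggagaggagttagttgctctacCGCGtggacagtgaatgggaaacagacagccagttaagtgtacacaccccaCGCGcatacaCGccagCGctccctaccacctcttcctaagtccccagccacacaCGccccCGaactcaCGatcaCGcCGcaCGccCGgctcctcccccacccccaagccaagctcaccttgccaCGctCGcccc
Kcnd2: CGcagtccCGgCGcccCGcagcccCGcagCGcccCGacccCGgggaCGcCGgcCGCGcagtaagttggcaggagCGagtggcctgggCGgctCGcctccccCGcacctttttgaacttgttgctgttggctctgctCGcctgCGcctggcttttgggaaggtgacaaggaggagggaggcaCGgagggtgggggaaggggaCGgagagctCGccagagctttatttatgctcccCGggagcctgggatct

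**Figure D3:**
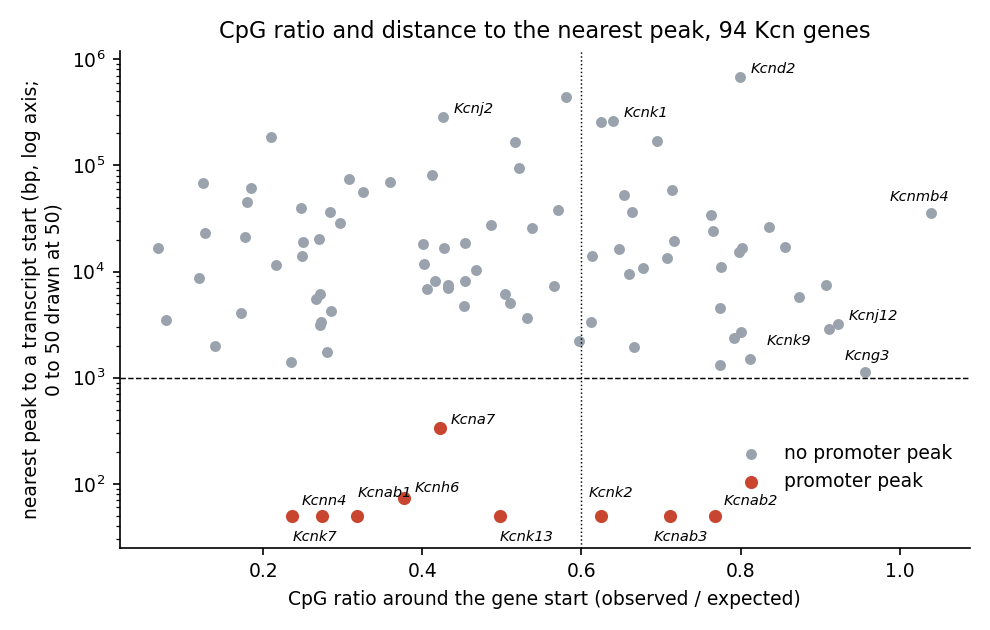
Each point is 1 of 94 Kcn genes, with the CpG ratio around its gene start on the x axis and the distance in bp from its transcript starts to the nearest peak on a log y axis. The dashed line marks 1 kb and the dotted line a ratio of 0.6; to the right of the dotted line, 33 of 36 genes lie above the dashed line.

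Genes without a promoter peak ranged widely in their distance to the nearest peak. The median over the 85 Kcn genes was 14141 bp, compared with 23094 bp over all protein-coding genes without a promoter peak. Of the 85 Kcn genes without a promoter peak, 50 had no peak within 10 kb of any start. Among the 10150 protein-coding genes without a promoter peak, 6834 had none. Among genes without a promoter peak, the share this far from a peak was thus smaller for Kcn genes. With all genes counted the order was reversed, at 53.2% of the 94 Kcn genes and 31.2% of protein-coding genes. Those 2 shares also reflect how many genes have a promoter peak. The farthest were Kcnd2 (679014 bp), which encodes the A-type channel Kv4.2, Kcnn2 (439584 bp), the inward rectifier Kcnj2 (283671 bp), the K2P channel Kcnk1 (260679 bp) and Kcnh7 (255369 bp). At the other end, Kcng3 (1125 bp), Kcnk6 (1325 bp), Kcnmb3 (1403 bp), Kcnh2 (1492 bp), Kcnu1 (1736 bp), Kcnj11 (1941 bp) and Kcnj14 (1970 bp) lay just outside the limit of 1 kb. With a limit of 2 kb these 7 genes would be counted, which makes 16 Kcn genes, and among them are subunits of the ATP-sensitive channel (Kcnj11) and of the cardiac delayed rectifier (Kcnh2).

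Several Kcn genes are neighbours, and none of the 8 groups of Kcn genes less than 200 kb apart held a promoter peak of a member. Each group has only 2 or 3 members, and 9.57% of all 94 Kcn genes had a promoter peak. The absence in these groups is therefore not read as a trait of neighbouring genes. The Kcna3, Kcna2 and Kcna10 genes on chromosome 3 span 159.6 kb that hold 1 peak, and Kcna5, Kcna1 and Kcna6 on chromosome 6 span 208.1 kb with 3 peaks. Kcnj16 and Kcnj2 on chromosome 11 span 108.8 kb without a peak. Kcnj5 and Kcnj1 on chromosome 9 span 84.5 kb with 1 peak, and Kcne2 and Kcne1 on chromosome 16 span 67.1 kb with 1 peak. The other groups held 3 peaks in the 53.6 kb of Kcnj9 and Kcnj10, 8 in the 363.8 kb of Kcnip1 and Kcnmb1 and 8 in the 129.1 kb from Kcnk5 to Kcnk16. Peaks per kb over the whole genome were not counted, so these numbers cannot be read as many or few.

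Peaks in the gene bodies were less rare. A gene-body peak was found at 38 of the 94 Kcn genes (40.4%), against 34.3% of all protein-coding genes. Kcn genes are longer, with a median of 30.8 kb compared with 17.4 kb, and a longer gene can hold more peaks. Per length, the 112 gene-body peaks of Kcn genes made 1.08 peaks per 100 kb, compared with 2.20 over all protein-coding genes. The density was lower for Kcn genes in 4 of 5 length classes, for example 0.71 compared with 1.45 among genes of 300 kb or more and 1.80 compared with 2.58 among genes of 30 to 100 kb. In genes under 10 kb it was 2.20 compared with 1.4. In all, 33 Kcn genes had gene-body peaks without a promoter peak, 5 had both, 4 had a promoter peak alone and 52 had neither. Of all 21938 protein-coding genes, 2331 had gene-body peaks without a promoter peak, 5188 had both and 7819 had neither.

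Of the 112 summits, 108 were in introns and 4 in exons, and 2 of the peaks were within 1 kb of a start of another gene. Their median fold enrichment was 5.41 and their median summit lay under 21.5 fragments, compared with 5.52 and 26 for gene-body peaks of all protein-coding genes. The heptamer TGACTCA, on either strand within 50 bp of the summit, was in 29 of 112 (25.9%), compared with 26.2% of 22800 gene-body peaks, and these 29 were spread over 17 genes.

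The 12 Kcnab, Kcne and Kcnip genes held 44 gene-body peaks, or 2.22 per 100 kb, close to the 2.20 over all protein-coding genes. Kcnab genes held 21 of them (5.79 per 100 kb) and Kcnip genes 23 (1.45 per 100 kb). Kcnab1 had the most gene-body peaks, 15 in 268.8 kb or 5.58 per 100 kb, and 5 of them reached a fold enrichment of 10 or more. They ranged from 3.09 to 17.8 in fold enrichment and from 11 to 104 fragments at the summit. Kcnab2 had 6 such peaks (6.89 per 100 kb), of which the highest, at chr4:152410911-152411555, had a fold enrichment of 11.5 and 83 fragments and lay within 1 kb of a start of the antisense gene Gm16333. The Kcnip genes encode KChIPs, calcium-binding partners of Kv4 channels, and all 4 had gene-body peaks: 12 in Kcnip4, the longest Kcn gene at 1135 kb, 8 in Kcnip1, 2 in Kcnip3 and 1 in Kcnip2. The density of Kcnip4 was only 1.06 per 100 kb. Kcnd1, Kcnd2 and Kcnd3, which encode the Kv4 pores that KChIPs bind, had neither promoter nor gene-body peaks. Of the BK auxiliary genes, Kcnmb3 had 4 peaks in 20.6 kb, the highest density among members with 3 or more (19.4 per 100 kb), with fold enrichments from 2.91 to 7.75. Kcnmb2 had 1, Kcnmb1 and Kcnmb4 had none, and none was found at the 5 Kcne genes.

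Among voltage-gated pore genes, 12 of 30 had gene-body peaks, and the Kcnh genes, which encode the EAG, ERG and ELK channels, accounted for 6 of these. Kcnh8 had 9 peaks in 376.5 kb (2.39 per 100 kb), 4 of them at a fold enrichment of 10 or more, and 4 with the heptamer. Kcnh5 had 4, Kcnh1 had 3, Kcnh2 had 2, and Kcnh6 and Kcnh7 had 1 each, while Kcnh3 and Kcnh4 had none. Kcnb2 had 2, both in exons, with fold enrichments of 4.46 and, at chr1:15719494-15720012, 13.9. Kcnq5 had 3, Kcnq3 had 2 and Kcnq1 had 1, and Kcnc2 had 1. The 8 Kcna genes and 3 Kcnd genes had none, and Kcnd2 held no peak over 514.3 kb.

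In the inward rectifiers, 7 of 15 genes had 12 gene-body peaks in all. Kcnj3, which encodes a subunit of the G-protein-gated channel, had 3 with fold enrichments from 4.73 to 9.88, and Kcnj12 had 3 up to 5.94. Kcnj10 had 2, and Kcnj6, Kcnj9, Kcnj11 and Kcnj14 had 1 each. Of the K2P genes, 5 of 14 had gene-body peaks. Kcnk2 had 5, the highest with a fold enrichment of 12.2. Kcnk5, which encodes the acid-sensitive channel TASK-2, had 3 in 41.8 kb (7.19 per 100 kb), and the strongest, at chr14:20154847-20155438, had a fold enrichment of 14.4 and 97 fragments. Kcnk9, Kcnk10 and Kcnk12 had 1 each, with fold enrichments of 10.6, 3.68 and 12.9.

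Calcium- and sodium-activated genes and their relatives held 0.38 gene-body peaks per 100 kb over 8 genes. Kcnma1, which encodes the pore of the BK channel, held 2 peaks in 725.1 kb, the higher with a fold enrichment of 5.78. Kcnt2 held 2 in 365.9 kb, and Kcnt1, Kcnn3 and Kcnn4 had 1 each. Kcnn2 held none in 417.2 kb, and the sperm channel gene Kcnu1 held none. Among the 10 silent subunits, the only gene-body peak was in Kcnv2, with a fold enrichment of 3.81 and 15 fragments.

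Gene-body peaks at a fold enrichment of 10 or more numbered 16 and lay in 9 genes. How many gene-body peaks of all protein-coding genes reach 10 was not counted, so these numbers cannot be read as many or few. The 101 bases at the summit are shown for the gene-body peaks with the heptamer that had the highest fold enrichment, 1 per gene, since they are the strongest gene-body peaks of the family that hold it. In the order listed, their fold enrichments were 16.4, 13.3 and 12.9. The windows lie at chr3:65118455-65118555 (plus strand), chr17:52832313-52832413 (plus) and chr17:87763300-87763400 (minus), with the heptamer in capitals.
Kcnab1: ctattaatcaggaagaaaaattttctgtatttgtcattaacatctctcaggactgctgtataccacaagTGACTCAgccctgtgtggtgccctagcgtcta
Kcnh8: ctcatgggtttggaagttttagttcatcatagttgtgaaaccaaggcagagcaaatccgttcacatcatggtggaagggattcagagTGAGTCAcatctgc
Kcnk12: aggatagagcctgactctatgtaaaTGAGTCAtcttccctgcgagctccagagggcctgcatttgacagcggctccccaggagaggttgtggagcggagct

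**Figure D4:**
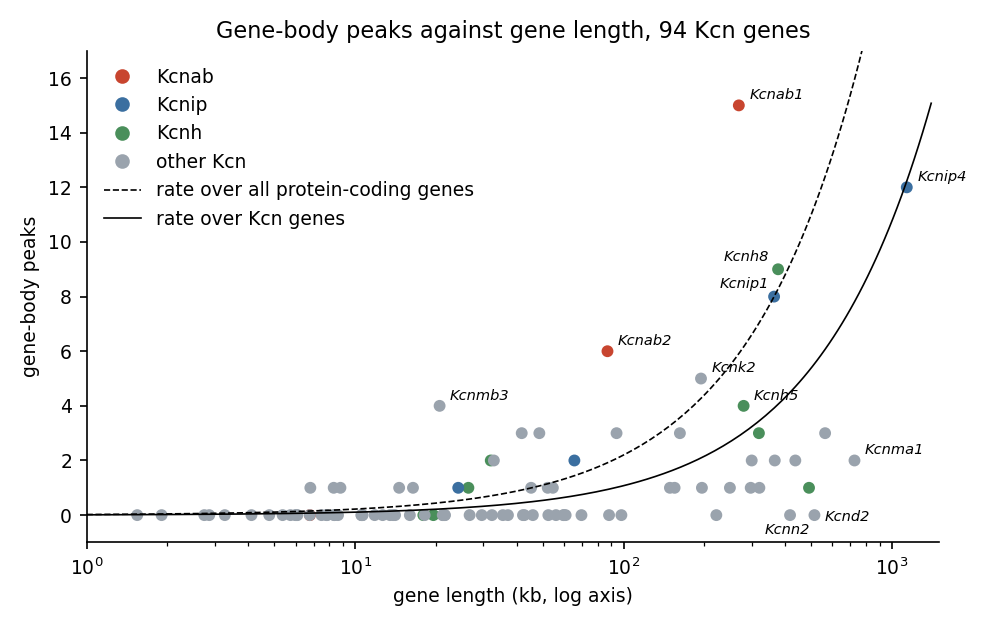
Number of gene-body peaks against gene length in kb (log axis) for the 94 Kcn genes, coloured by subfamily. The lines show the rate over all protein-coding genes (dashed, 2.20 per 100 kb) and over Kcn genes (solid, 1.08 per 100 kb); Kcnab1, Kcnab2 and Kcnmb3 stand above both lines, and Kcnma1, Kcnd2 and Kcnn2 below both.

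The 10 genes with the most gene-body peaks, picked by that count, held 69 of the 112 (61.6%). The same share over all protein-coding genes was not counted, and some of the 10 are long, such as Kcnip4 with 1135 kb. The 38 genes with a gene-body peak include 33 of the 85 without a promoter peak. Over all protein-coding genes without a promoter peak, 2331 of 10150 had a gene-body peak.

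Matches to a pair of other motifs were counted around the gene starts, 500 bp to either side and on both strands. The NRSE, the element bound by the repressor REST at neuronal genes, was searched as CAGCACC and GGACAG separated by 2 bases, and found at 1 of 94 Kcn genes (Kcnt1) and at 0.137% of protein-coding genes. The CRE, TGACGTCA, which is bound by CREB and shares its outer letters with TGACTCA, was found at 2 of 94 (Kcna5 and Kcnf1, 2.13%) and at 3.32% of protein-coding genes. A match describes letters in the window and not a bound factor.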

How the data were processed

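The peak list of the parental NIH-3T3 library was used. The labels name STAR 2.5.3a, Picard and MACS2 2.1.1.20160309. Per the methods, the authors aligned to mm10, kept reads that mapped once and to chromosomes 1 to 19, X or Y, removed duplicates and called peaks on this library alone. Peak calling is described there as for ChIP-seq, where peaks that overlapped input peaks or the ENCODE blacklist were dropped. Whether the peak list used here had this filter was not checked. A shift of fragment ends for the Tn5 cut is not given in the sources used here. For each peak the authors deposited its fold enrichment, a −log10 p-value and a −log10 q-value of a Poisson test, and a score. The fold enrichment was read as the pileup at the summit plus 1, divided by the expected pileup plus 1. The deposited score was not used.

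Genes and transcripts came from GENCODE M21 and sequence from GRCm38, the same build, and coordinates count from 1. Fragments at the summit were obtained from the fold enrichment and the −log10 p, and came out whole for all 124 peaks named or counted at Kcn genes, within 0.001 in −log10 p. This was checked on simulated data, as was the assignment of peaks to genes. The peak list does not give the depth of the library, and no interval between samples can be given. Values were not tested, because there is 1 library.

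Members and lists were chosen with earlier results of these data known, and so were the named genes: all with a promoter peak, the 10 with the most gene-body peaks, the 5 densest, and the 5 farthest from a peak, closest to a peak and richest in CpG of those without a promoter peak. Single values of some genes that this rule names are not reported here. Other genes were named to account for members of each subfamily, and the clusters of neighbouring genes (at most 200 kb apart) were chosen after values were seen. The alternatives tried were other q, fold enrichment, distance, TSS and window settings. The tools were pysam 0.24.0, pandas 2.3.3, NumPy 2.4.6, SciPy 1.17.1 and matplotlib 3.10.9 under Python 3.11.15.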

Additional observations from a re-analysis of the deposited data

How the results depend on the processing

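Of 60 alternatives, 8 moved a count by over 1.5 times or another value out of its 95% interval over genes or peaks, and 52 did not. The interval of the median fold enrichment of promoter peaks was wide (3.29 to 14.1), and at a fold enrichment of at least 5 that median was 10.9 over 5 Kcn genes and 10.3 over all protein-coding genes, the opposite order. The 9 Kcn genes with a promoter peak became 5 at a fold enrichment of at least 5 and 16 within 2 kb of a start, where the shares of all protein-coding genes were 48.8% and 56.5%. With the first start of each gene or the starts of coding transcripts alone there were 7, and Kcnab1 and Kcnk2 were lost. All 9 kept a peak that no other gene shared, whereas the share of protein-coding genes fell to 37.0%. Of the 36 CpG-rich Kcn genes, 7 rather than 3 had a peak within 2 kb, and with a CpG ratio of at least 0.75 the count was 1 of 20. With the first start or coding transcripts alone it was 2 of 36. The settings for CpG-rich genes and for the Kcnab genes were chosen after seeing the data.

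Gene-body peaks per 100 kb fell to 0.865 at a q of 1e-05 and to 0.654 at a fold enrichment of at least 5, and those of all protein-coding genes to 1.76 and 1.26. The median distance to the nearest peak was 22833 bp at a fold enrichment of at least 5. TGACTCA was in 34.8% of gene-body peaks within 100 bp of the summit, compared with 36.3% for all protein-coding genes. No paired analysis was possible because the results come from 1 library and no test. Peaks with few fragments, such as those of Kcnk7 and Kcnk13 with 16, are near the limit of what this library can show, and a start without a peak was not shown to be inaccessible.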

Other observations

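Other ion channel and transporter families varied in the share of genes with a promoter peak, by the same measure and in the same library. Of the sodium channel genes (Scn), 5 of 14 (35.7%) had one, among them Scn2a, Scn3a and Scn8a. Of the calcium channel genes (Cacn), 11 of 26 (42.3%) had one, among them Cacna2d1, Cacnb2 and Cacnb3. The HCN genes, which encode pacemaker channels related to the voltage-gated potassium channels, had none in 4, although all 4 were CpG-rich. Of the chloride channel and transporter genes (Clcn), many of which act in endosomes and lysosomes, 8 of 9 (88.9%) had one. TRP channel genes had one at 6 of 22. Among the genes of the sodium-potassium and proton-potassium pumps and the Slc12a transporters, some of which do not move potassium, 8 of 20 had one, among them Atp1b3, a subunit of the sodium-potassium pump, and Slc12a2, the sodium-potassium-chloride cotransporter. The families differ in length and number of starts, and no test was made.

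The only gene-body peak of Kcnq1 lay at the start of Kcnq1ot1, an antisense non-coding RNA of the imprinted Kcnq1 region. The peak at chr7:143296248-143296955 was 708 bp wide, with 47 fragments at the summit, a −log10 q of 30.9 and a fold enrichment of 9.57. None of the antisense genes Kcnd3os, Kcnmb4os1, Kcnmb4os2 and Kcnab3os had a peak within 1 kb of a start.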
